A study of Mus musculus with 5 samples.

Results

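Fibroblast activation genes are 10 genes that fibroblasts switch on in wounded or pressure-loaded tissue: Postn, Cthrc1, Comp, Thbs1, Tnc, Ctgf, Cyr61, Cilp, Meox1 and Ltbp2. They were chosen by name as genes known from activated fibroblasts, and they are 10 of the 17902 genes listed in any of the deposited tables. Their UMIs (unique molecular identifiers, which count captured transcripts) were followed in every library and in cell types set apart by 1 marker gene. Cardiac interstitial cells of adult mice had been freed with collagenase II, cleared of cardiomyocytes, sorted by flow cytometry on the surface proteins cKit, DDR2 and CD45, and sequenced in 5 droplet libraries with 3-prime chemistry. The 4 sorts were cKit+/DDR2+/CD45+ (1 library), cKit+/DDR2+/CD45- (1), cKit+/DDR2- (replicates 1 and 2) and cKit-/DDR2+ (1). No treatment, injury or genetic change is named for any of the mice, and the strain, age, sex and number of animals are not given in the sources used here. cKit is a receptor kinase carried by blood and some endothelial cells, DDR2 is a collagen receptor of fibroblasts, and CD45 is the common leukocyte phosphatase. With 1 library in 3 of the 4 sorts there is no test between sorts, and those values are given as a description.

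Resting cardiac fibroblasts that are stretched, injured or exposed to TGF-beta make contractile fibres and lay down new matrix. Part of that matrix is matricellular, meaning secreted proteins such as periostin, the thrombospondins and the tenascins that act on cells and growth factors more than they bear load. The CCN proteins encoded by Ctgf (Ccn2) and Cyr61 (Ccn1) are classic targets of the mechanically regulated YAP and TEAD factors, and endothelial cells make them as well under flow and stretch.

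The members lie on 10 places of the mouse genome (GRCm38), among them Postn on chr3:54361109-54391037, Cyr61 on chr3:145646976-145649981, Cilp on chr9:65265180-65280605 and Ltbp2 on chr12:84783212-84876532. Promoter windows of 300 bases, from 250 bases before to 50 after a transcript start, were at hand for 5 of the 10 members (7 windows, RefSeq, GRCm38.p6). The windows of 4 members are printed 5′ to 3′ along each gene's own strand, because these genes differ in how widely they were found. Cyr61 was at 94.8 CPM or more and Postn at 1.87 CPM or more in every gate used. Cilp and Ltbp2 had 0 CPM in some endocardial and capillary gates and did not exceed 2.96 CPM in any of them. Capitals mark the letters GGAATG or CATTCC of the TEAD motif, TGANTCA of the AP-1 motif and TATAAA or TTTATA of the TATA box, searched on both strands.
Postn (chr3:54360857-54361156, + strand): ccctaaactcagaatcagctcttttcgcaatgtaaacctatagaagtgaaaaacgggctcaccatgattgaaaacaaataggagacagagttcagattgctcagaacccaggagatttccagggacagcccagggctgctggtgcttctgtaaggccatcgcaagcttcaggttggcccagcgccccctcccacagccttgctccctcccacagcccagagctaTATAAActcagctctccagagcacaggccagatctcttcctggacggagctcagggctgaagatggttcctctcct
Cyr61 (chr3:145649936-145650235, - strand): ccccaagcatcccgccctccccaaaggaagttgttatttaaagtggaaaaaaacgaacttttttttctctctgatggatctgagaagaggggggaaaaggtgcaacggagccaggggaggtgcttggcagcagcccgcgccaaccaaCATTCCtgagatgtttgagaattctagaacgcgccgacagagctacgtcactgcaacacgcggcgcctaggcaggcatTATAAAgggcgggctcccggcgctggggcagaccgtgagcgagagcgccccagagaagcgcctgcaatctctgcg
Cilp (chr9:65264930-65265229, + strand): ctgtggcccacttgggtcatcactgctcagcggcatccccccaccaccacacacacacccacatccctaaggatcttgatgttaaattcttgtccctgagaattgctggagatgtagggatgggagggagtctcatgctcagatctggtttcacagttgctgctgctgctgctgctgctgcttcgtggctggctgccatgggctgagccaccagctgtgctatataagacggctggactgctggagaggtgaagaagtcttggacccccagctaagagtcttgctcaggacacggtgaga
Ltbp2 (chr12:84876442-84876741, - strand): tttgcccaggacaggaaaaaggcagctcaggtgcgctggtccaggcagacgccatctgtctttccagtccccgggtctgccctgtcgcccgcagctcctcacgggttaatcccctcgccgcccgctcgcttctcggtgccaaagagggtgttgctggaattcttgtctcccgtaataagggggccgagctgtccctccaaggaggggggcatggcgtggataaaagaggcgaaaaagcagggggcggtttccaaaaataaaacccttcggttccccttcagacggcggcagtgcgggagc
The Cyr61 window held 1 TEAD match, at base 148, and 1 TATA box, at base 226. The Postn window held a TATA box at base 225. Neither the Cilp nor the Ltbp2 window held any of these letters, and none of the 7 windows held the AP-1 letters. Among 32851 promoter windows of the same length, 14.7% held the TEAD letters, 7.81% the AP-1 letters and 13.6% the TATA box, and the 3 motifs share no letters at these matches. A match describes the letters of the window and was not tied to any value here.

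The libraries held between 436 cells (cKit+/DDR2- replicate 1) and 3898 cells (cKit+/DDR2+/CD45+), with 4047326 to 44847778 UMIs in all and a median of 7529 to 10972 UMIs per cell. cKit+/DDR2+/CD45+ and cKit+/DDR2- replicate 1 shared 190 cell barcodes, which were 4.87% of the cells of cKit+/DDR2+/CD45+ and 43.6% of those of replicate 1. Other pairs of libraries shared at most 3. These cells had a median of 622.5 UMIs in cKit+/DDR2+/CD45+ and of 12133.5 in replicate 1, and they made up 60 of the 131 endocardial-gated and 20 of the 213 capillary-gated cells of cKit+/DDR2+/CD45+, but 0 of its 26 fibroblast-gated cells. Leaving them out moved the endocardial level of Comp in that library to 105.9 CPM (the gene's UMIs, scaled to a common total per gate), against 109 with them, and that of Ctgf to 218.7 against 225 CPM. No call of a member in the test across cell types changed without them.

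Cell types were set apart by a gate: a cell belonged to a type if it held at least 1 UMI of that type's gene and none of the other gate genes. The gate genes were Pdgfra for fibroblasts, Npr3 for endocardial cells, Gpihbp1 for capillary endothelial cells and Kcnj8 for pericytes, the contractile cells that wrap capillaries. In the order cKit+/DDR2+/CD45+, cKit+/DDR2+/CD45-, cKit+/DDR2- replicate 1, cKit+/DDR2- replicate 2 and cKit-/DDR2+, the fibroblast gate held 26, 34, 4, 121 and 666 cells, the endocardial gate 131, 401, 120, 1190 and 42, and the capillary gate 213, 559, 177, 440 and 975. Gates of at least 20 cells were used, which left out the fibroblast gate of replicate 1 and every pericyte gate but the 29 cells of cKit-/DDR2+. All 8 fibroblast markers were found in each fibroblast gate, and all 6 endocardial, 7 capillary and 7 pericyte markers in each of their own gates, the gate gene included. The gates were not pure. Lymphatic endothelial markers (Prox1, Mmrn1, Ccl21a, Lyve1, Flt4 and Reln) summed to 1214, 3952, 13099, 14098 and 51.4 CPM in the 5 capillary gates, and macrophage markers (Csf1r, C1qa, Adgre1, Cd68, Fcgr1 and Mrc1) to 2265 CPM in the fibroblast gate of cKit+/DDR2+/CD45+, where 83.9% of all cells were macrophage-gated.

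The members were not all highest in fibroblast-gated cells. The fibroblast, endocardial and capillary gates were ranked by median level. The highest was the fibroblast gate for 6 members, the endocardial gate for 3 (Comp, Ctgf and Cthrc1) and the capillary gate for 1 (Meox1). Among the 6, Cyr61 (654 against 642 CPM in the endocardial gate) and Tnc (3.57 against 3.01 CPM in the capillary gate) were close. Of the 4 libraries with all 3 gates, Postn, Thbs1 and Ltbp2 were highest of the 3 in the fibroblast gate in 4. Comp was so in the endocardial gate in 4 and Meox1 in the capillary gate in 4. The 1 pericyte gate was left out of this ranking, and its Postn level (378 CPM) lay above every fibroblast level. Intervals given with levels are exact 95% Poisson intervals, which cover counting error only.

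**Figure D1:**
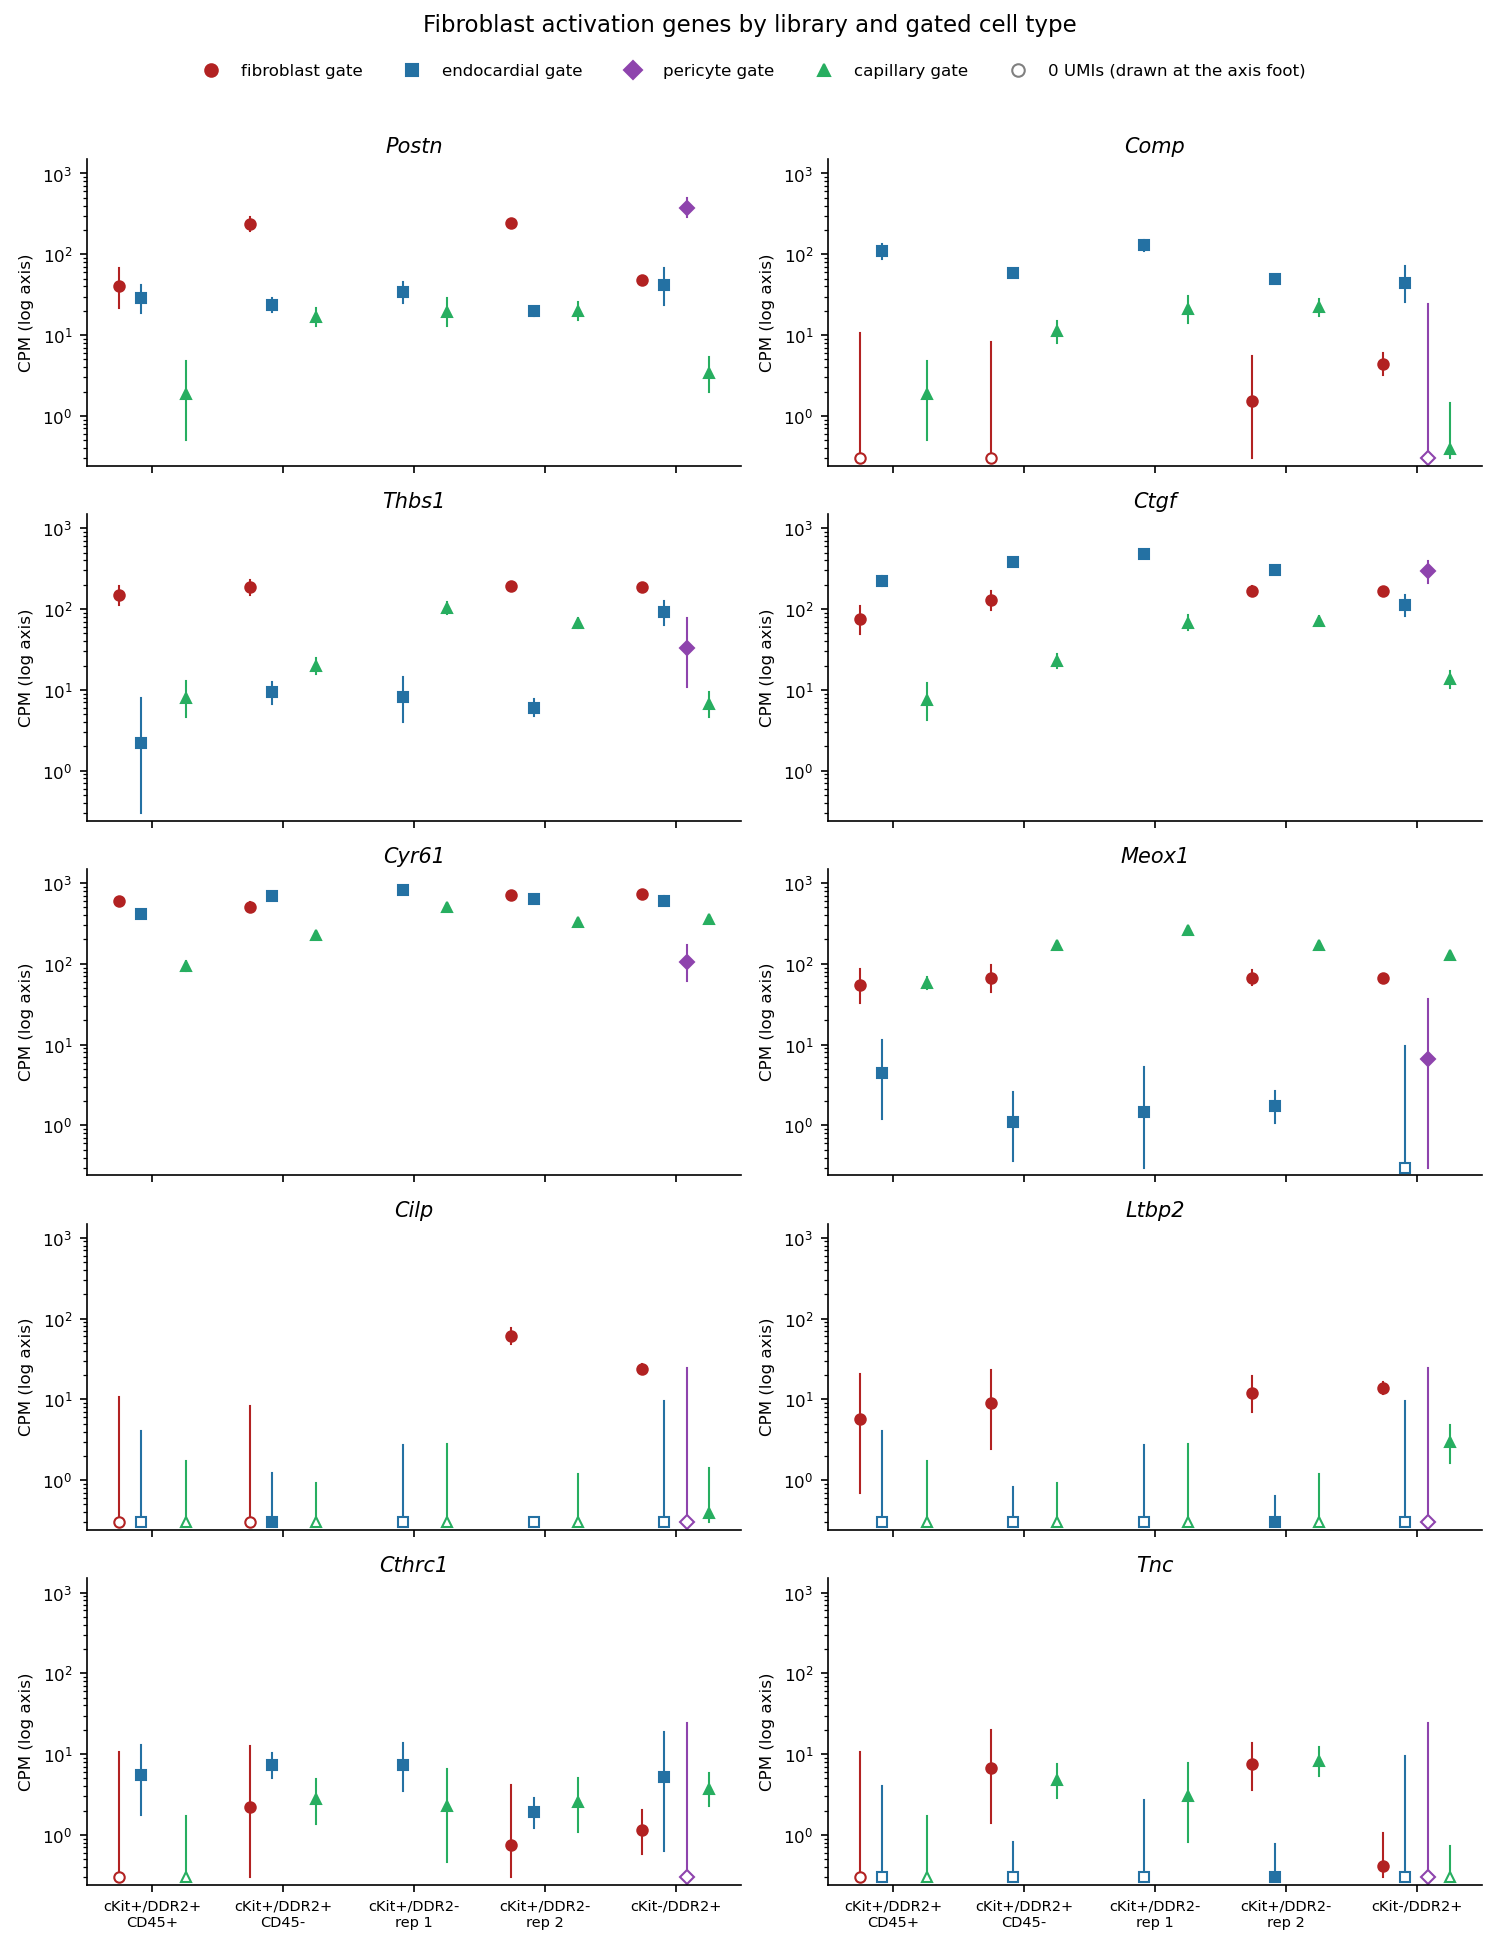
Level of each of the 10 genes (CPM, log axis) in every library and gate with at least 20 cells. Points are summed UMIs scaled to a common total, bars are 95% Poisson intervals and open points at the foot of the axis had 0 UMIs, while filled points there are above 0 but below the axis. The endocardial points of Comp and the capillary points of Meox1 lie above those of the other 2 gates in the libraries that hold all 3.

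Postn encodes periostin, the matricellular protein by which activated cardiac fibroblasts are usually recognised. Its fibroblast-gate level was 40.1 CPM (95% interval 21.9 to 67.3) in cKit+/DDR2+/CD45+, 240 CPM (196 to 290) in cKit+/DDR2+/CD45-, 242 CPM (217 to 270) in replicate 2 of cKit+/DDR2- and 48.7 CPM (44.4 to 53.3) in cKit-/DDR2+. The intervals of cKit+/DDR2+/CD45- and replicate 2 lay above those of the other 2 libraries, and few cells carried the difference. Without cells that held Csf1r, Prox1 or Mmrn1 the levels were 88.4 CPM (48.3 to 148), 178 CPM (140 to 222), 153 CPM (131 to 177) and 47.0 CPM (42.7 to 51.7), and the interval of cKit+/DDR2+/CD45+ then overlapped those of all 3 others. Of its 26 fibroblast-gated cells 13 held Csf1r and no Postn, and in replicate 2 the 7 cells with Prox1 or Mmrn1 held 44.5% of the Postn UMIs. These 2 libraries also differed from the others in sex genes: Xist, which only female cells make, was 757 and 496 CPM in them and at most 0.0669 CPM elsewhere, and 4 Y-linked genes summed to at most 0.102 CPM, against 154 to 197 CPM in the other 3. In replicate 1 of cKit+/DDR2-, 1 of those 3, 3 of the 4 fibroblast-gated cells held 70 Postn UMIs between them, too few cells for this comparison. The part of sex in the difference was not tested. Postn UMIs were in 4 of 26, 8 of 34, 30 of 121 and 83 of 666 fibroblast-gated cells, and the 5 cells with most of them held 100%, 97.2%, 67.3% and 29.0% of the gate's total. Endocardial levels were lower, at 28.6, 23.5, 33.9, 19.6 and 41.7 CPM over the 5 libraries, and capillary levels were 1.87, 16.9, 19.6, 20.1 and 3.35 CPM, below the endocardial level in all libraries but replicate 2. The level of the 1 pericyte gate was 378 CPM (287 to 490), with Postn UMIs in 21 of 29 cells. Macrophage-gated cells of cKit+/DDR2+/CD45+ had 1.26 CPM.

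The cells that held most Postn differed between libraries. In cKit+/DDR2- replicate 2, 3 cells of the fibroblast gate held 176 of its 321 Postn UMIs (4013 CPM, against 113 CPM in the other 118). Their fibroblast markers summed to 21982 CPM, against 47832 CPM in the other cells, and their smooth muscle markers (Myh11, Acta2, Tagln, Mylk, Cnn1 and Lmod1) to 1642 CPM against 25 CPM. The 11 cells of cKit-/DDR2+ that held most Postn (1142 CPM, against 24.7 CPM) did not show this: their smooth muscle markers summed to 38.9 CPM against 32.4 CPM and their fibroblast markers to 52497 CPM against 64903 CPM. The part of smooth muscle or other cells in these Postn levels was not tested.

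Thbs1 encodes thrombospondin 1, which can release TGF-beta from its latent complex. Its fibroblast-gate levels were 149, 186, 192 and 187 CPM in cKit+/DDR2+/CD45+, cKit+/DDR2+/CD45-, cKit+/DDR2- replicate 2 and cKit-/DDR2+. All 4 intervals overlapped, and UMIs were in 8 of 26, 13 of 34, 47 of 121 and 312 of 666 cells. Thinned to 1000 UMIs per cell, Thbs1 was found in 3.85%, 11.8%, 8.33% and 14.9% of these cells, and in 0.371% of the macrophage-gated cells of cKit+/DDR2+/CD45+. Endocardial levels were 2.20, 9.32, 8.10, 6.02 and 91.2 CPM over the 5 libraries. In the last, cKit-/DDR2+, 29 of the 35 UMIs came from 1 cell, in a gate of 42 cells whose fibroblast markers summed to 7823 CPM. Capillary levels were 7.94, 19.9, 104, 67.6 and 6.70 CPM, and here both cKit+/DDR2- libraries stood above the other 3.

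In 3 libraries, capillary-gated Thbs1 lay almost wholly in cells that also carried lymphatic transcripts. In cKit+/DDR2+/CD45-, cKit+/DDR2- replicate 1 and cKit+/DDR2- replicate 2, 55, 57 and 169 capillary-gated cells held UMIs of Prox1 or Mmrn1, which mark lymphatic endothelium, and 504, 118 and 256 held none of these nor of Csf1r. Thbs1 was 147, 299 and 163 CPM in the cells with Prox1 or Mmrn1, against 0.581, 1.17 and 1.2 CPM in the cells with none, so that the first group held 97.5%, 99.3% and 98.6% of the gate's Thbs1 UMIs. Comp split the same way, at 74.7, 61.2 and 52.4 CPM against 1.45, 0 and 1.79 CPM, and so did Postn, at 107, 56.8 and 47.7 CPM against 3.19, 0 and 1.2 CPM. Meox1 did not, at 247, 251 and 272 CPM against 162, 263 and 109 CPM. The cells with Prox1 or Mmrn1 had 22285, 30054 and 25624 CPM of the lymphatic chemokine Ccl21a against 13.6, 198 and 26.3 CPM, and less Gpihbp1 (923, 717 and 736 CPM against 1894, 1703 and 1437 CPM). Their median depth was 9369, 7804 and 7409 UMIs per cell, against 6272.5, 6868 and 6179.5. In cKit+/DDR2+/CD45+, 17 capillary-gated cells with Prox1 or Mmrn1 held 16 of the 17 Thbs1 UMIs, in 2 cells. This was not so in cKit-/DDR2+, where only 2 capillary-gated cells held Prox1 or Mmrn1 and all 34 Thbs1 UMIs (6.81 CPM) were in cells with none. This split was made after the lymphatic markers had been seen in the gate.

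**Figure D2:**
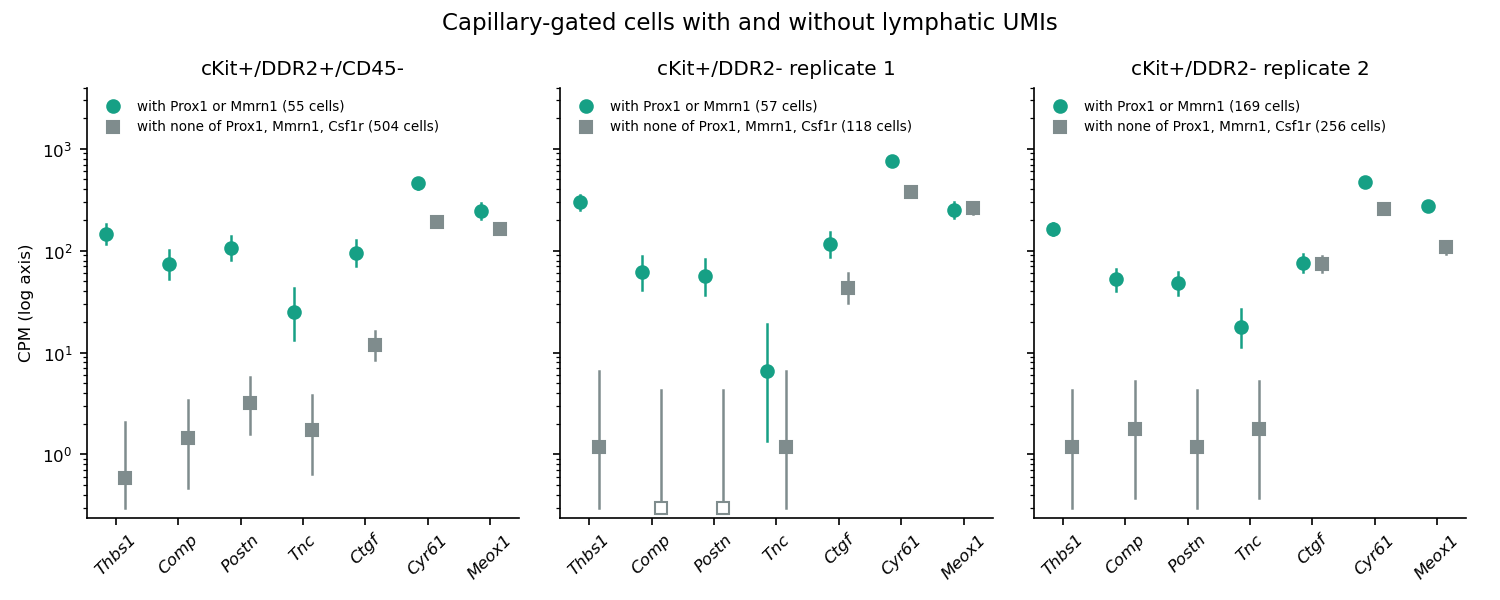
Levels (CPM) in capillary-gated cells with UMIs of the lymphatic genes Prox1 or Mmrn1 and in those with none, for cKit+/DDR2+/CD45- and both cKit+/DDR2- libraries, on a log axis with 95% Poisson intervals and open points for 0 UMIs. Thbs1 is 147, 299 and 163 CPM with them and at most 1.2 CPM without, while Meox1 is 247, 251 and 272 CPM with them and 162, 263 and 109 CPM without.

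Comp encodes cartilage oligomeric matrix protein, a thrombospondin best known from cartilage and tendon. Of the fibroblast, endocardial and capillary gates, the endocardial one had the highest Comp level in every library. Its endocardial-gate level was 109 CPM (88.6 to 133) in cKit+/DDR2+/CD45+, 58.6 CPM in cKit+/DDR2+/CD45-, 129 CPM in replicate 1 of cKit+/DDR2-, 49.3 CPM in replicate 2 and 44.3 CPM in cKit-/DDR2+, with UMIs in 21 of 131, 94 of 401, 41 of 120, 200 of 1190 and 5 of 42 cells. Fibroblast gates had 0 UMIs in cKit+/DDR2+/CD45+ and cKit+/DDR2+/CD45-, 1.51 CPM in replicate 2 and 4.39 CPM in cKit-/DDR2+, where 28 of 42 UMIs were in 1 cell. Every endocardial value lay above every fibroblast value. Endocardial-gated cells held 69.7%, 56.7%, 55.0% and 68.2% of all Comp UMIs in the 4 cKit+ libraries, though they held 2.03%, 37.7%, 33.6% and 38.8% of all UMIs. In cKit-/DDR2+ they held 22.4% of the 76 Comp UMIs, with 1.85% of all UMIs. Fibroblast-gated cells held 55.3% of the Comp UMIs there, with 46.1% of all UMIs. Thinned to 1000 UMIs per cell, Comp was found in 4.35%, 5.29%, 6.67%, 3.29% and 2.44% of endocardial-gated cells over the 5 libraries, and in 0 of 3238 macrophage-gated cells of cKit+/DDR2+/CD45+ (a share of up to 0.0926%). In cKit+/DDR2+/CD45+, 62 of the 131 endocardial-gated cells were too shallow for this count.

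The CCN genes Ctgf and Cyr61 were higher in both fibroblast and endocardial gates than in capillary gates. Ctgf was 74.5, 130, 167 and 167 CPM in the fibroblast gates of cKit+/DDR2+/CD45+, cKit+/DDR2+/CD45-, cKit+/DDR2- replicate 2 and cKit-/DDR2+. In the first, cells with Csf1r held 84.6% of the gate's Ctgf UMIs. In the second, 1 cell with Prox1 or Mmrn1 held 36.2%. Cells with none of Csf1r, Prox1 or Mmrn1 had 25.3 CPM (6.88 to 64.7), 86.5 CPM, 185 CPM and 168 CPM in the 4 gates. In replicate 2, 3 cells held 126 Ctgf UMIs (3388 CPM), against 95 in the other 118 (73.8 CPM). Their smooth muscle markers summed to 2017 CPM against 22.5 CPM, and the part of smooth muscle transcripts was not tested. Without the 5 cells with most Ctgf, the 4 gates had 11.3, 8.15, 63.8 and 142 CPM, though that step takes a larger share of a small gate. Endocardial Ctgf levels were 225, 384, 477, 305 and 112 CPM over the 5 libraries, above the fibroblast level in 3 of the 4 libraries with both gates and below it in the fourth, cKit-/DDR2+. Capillary levels were 7.47, 22.9, 67.8, 71.7 and 13.6 CPM, below the endocardial level in all 5. Thinned to 1000 UMIs, Ctgf was found in 8 of 69, 80 of 397, 24 of 120, 212 of 1184 and 4 of 41 endocardial-gated cells (9.76 to 20.2%), and in 0 of 3238 macrophage-gated cells of cKit+/DDR2+/CD45+ (up to 0.0926%).

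Cyr61 was found at 94.8 CPM or more in each gate used. Its fibroblast levels were 591, 506, 718 and 739 CPM, its endocardial levels 408, 683, 828, 642 and 602 CPM and its capillary levels 94.8, 228, 503, 329 and 354 CPM, in the same order of libraries. Fibroblast and endocardial values overlapped, and the capillary value lay below them in each library. In the 1 pericyte gate Ctgf and Cyr61 parted, with 292 CPM for Ctgf and 106 CPM for Cyr61. Macrophage-gated cells of cKit+/DDR2+/CD45+ had 0.272 CPM of Ctgf and 13 CPM of Cyr61.

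**Figure D3:**
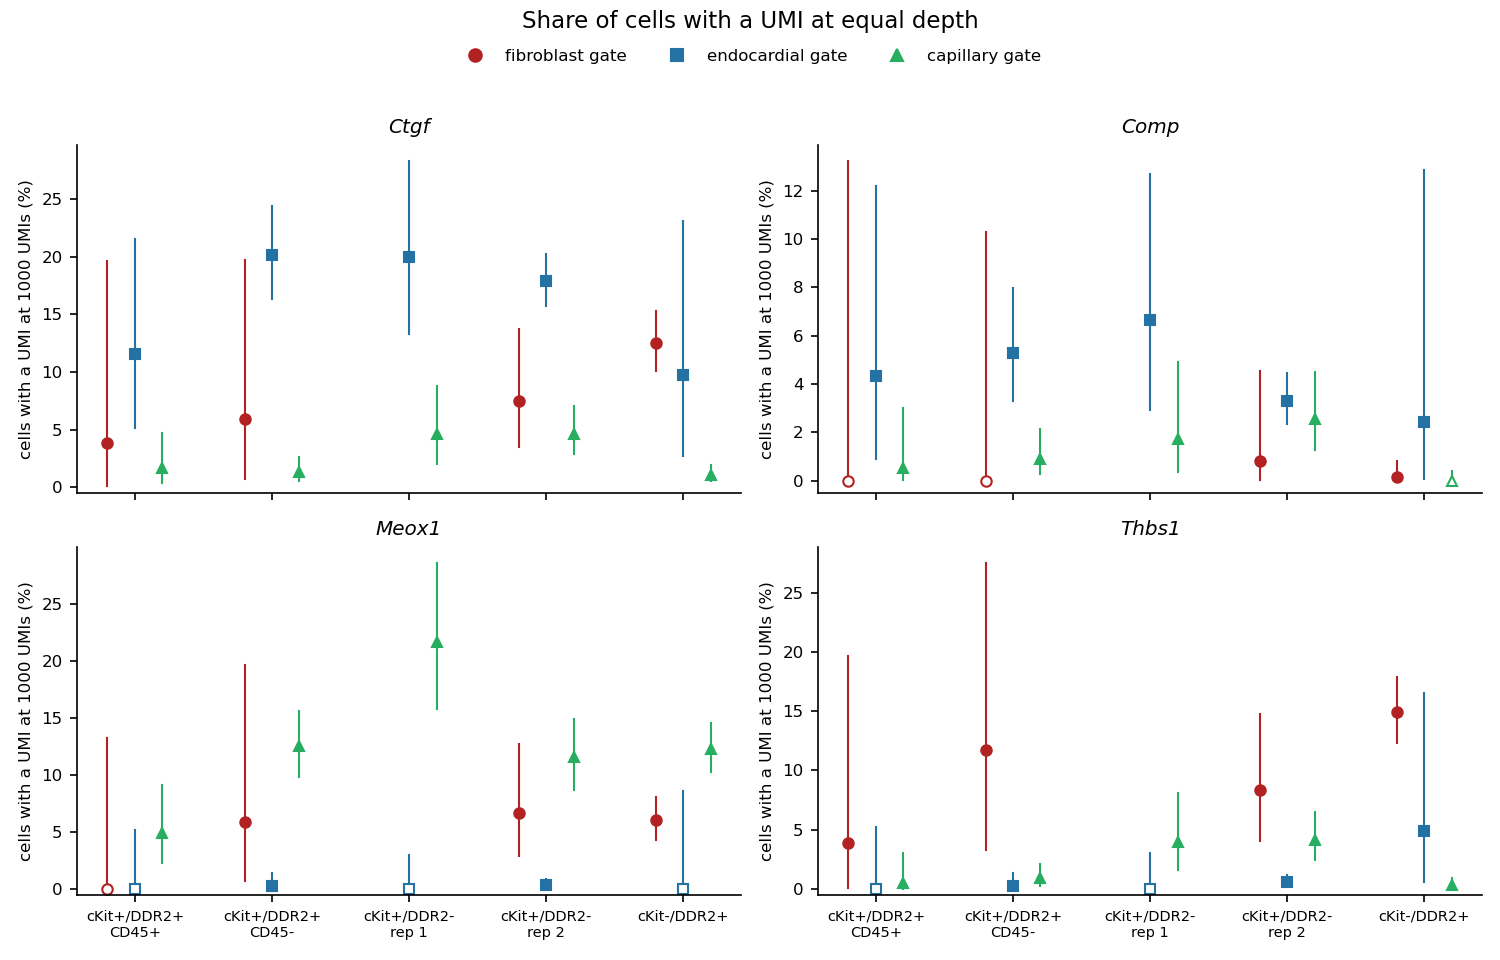
Share of gated cells (%) with a UMI of Ctgf, Comp, Meox1 or Thbs1 after thinning each cell to 1000 UMIs, by library, with exact 95% intervals and open points for 0 cells. Ctgf is found in 9.76 to 20.2% of endocardial-gated cells and Meox1 in 4.92 to 21.7% of capillary-gated cells.

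Cilp and Ltbp2 were scarce in the endocardial and capillary gates. Cilp encodes cartilage intermediate layer protein, a matrix protein that binds TGF-beta, and Ltbp2 a latent TGF-beta binding protein relative that sits on elastic microfibrils. Cilp was 61.2 CPM (48.6 to 76.0) in fibroblast-gated cells of cKit+/DDR2- replicate 2 and 23.9 CPM (20.9 to 27.2) in those of cKit-/DDR2+, with 0 UMIs in the fibroblast gates of cKit+/DDR2+/CD45+ and cKit+/DDR2+/CD45-. In the endocardial and capillary gates it did not exceed 0.394 CPM. The fibroblast gate held 98.8% of all Cilp UMIs in replicate 2 and 75.3% in cKit-/DDR2+. In cKit+/DDR2+/CD45- it held 0% of the 17 Cilp UMIs, of which 94.1% lay in cells with several gate genes. In replicate 2, 8 of 121 cells held any, and the 5 cells with most held 96.3%. The 2 cells with most held 60 of the UMIs, and their smooth muscle markers summed to 2233 CPM, against 24.8 CPM in the other 119. Ltbp2 was 5.73, 8.96, 12.1 and 14.0 CPM in the 4 fibroblast gates, was found in 2, 3, 3 and 43 cells there, and did not exceed 2.96 CPM in any endocardial or capillary gate.

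Cthrc1 and Tnc stayed low in every gate. Cthrc1 encodes a secreted protein that marks reparative fibroblasts after infarction in mice, and Tnc encodes tenascin C, a matrix protein laid down in wounds. Cthrc1 was 0, 2.24, 0.755 and 1.15 CPM in the fibroblast gates and 5.51, 7.32, 7.36, 1.92 and 5.21 CPM in the endocardial gates. Tnc was at most 7.55 CPM in a fibroblast gate and at most 8.29 CPM in a capillary gate. Neither reached 50 CPM in any gate, the level set for the test, so their place in the order of gates rests on low levels and was not tested.

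Meox1 encodes a homeobox factor that switches on the fibroblast programme of stressed mouse hearts, and Meox factors also act in vascular development. It was highest in capillary-gated cells, at 58.4, 173, 261, 169 and 128 CPM over the 5 libraries. Fibroblast levels were 54.5, 67.2, 67.2 and 66.9 CPM, below the capillary level in each of the 4 libraries. In cKit+/DDR2+/CD45-, 1 cell with Prox1 or Mmrn1 held 21 of the 30 UMIs, and the other 33 cells had 21.0 CPM (9.62 to 39.9). Endocardial cells had almost none, at 4.40, 1.11, 1.47, 1.74 and 0 CPM, although they too are endothelial. Meox1 UMIs were in 50 of 213, 262 of 559, 125 of 177, 208 of 440 and 368 of 975 capillary-gated cells. Thinned to 1000 UMIs, the capillary shares were 4.92%, 12.5%, 21.7%, 11.6% and 12.3%, the endocardial shares at most 0.338%, and 1 of 3238 macrophage-gated cells of cKit+/DDR2+/CD45+ held a UMI. Capillary-gated cells held 61.9%, 72.4%, 80.1%, 61.6% and 38.5% of all Meox1 UMIs. In cKit+/DDR2+/CD45+ the capillary gate also held 123 cells with Csf1r UMIs, and its level was lower than in the other libraries.

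The differences between gates were tested with limma on log2(CPM + 1) of UMIs summed per gate and library, with the library as a block, and p-values were adjusted over all 5684 genes tested. Differences are on this log2 scale, which understates the change of low genes, and with ± SE. The libraries cover 4 sorts, and the sources used here name no animals. The sex genes split the libraries into 2 groups that cannot share an animal, with a replicate of cKit+/DDR2- in each, and which libraries within a group share one is not given. The p-values measure only the spread between these libraries. Of the 10 members, 7 passed the filter of 50 CPM in at least 1 gate and library (all but Cthrc1, Tnc and Ltbp2). They are the members that were high somewhere, so counts over them are a description.

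In fibroblast-gated against capillary-gated cells, 4 of the 7 members were higher and 0 were lower, where 21.3% of all genes tested were higher and 28.0% lower. Postn was higher by 3.56 ± 0.58 (adjusted p = 0.00049), Thbs1 by 3.03 ± 0.92 (0.0186), Ctgf by 2.52 ± 0.41 (0.000523) and Cyr61 by 1.43 ± 0.25 (0.00078), each in 4 of 4 libraries. Meox1 was -1.03 ± 0.48 (adjusted p = 0.0986, lower in 4 of 4), Comp -1.68 ± 0.82 (0.114) and Cilp 2.53 ± 1.02 (0.0624), none past the threshold of 0.05. Some of these passed in other settings: Cilp in 5 of 12, among them without cKit+/DDR2+/CD45+ (3.38, 0.0356) and without cKit+/DDR2+/CD45- (3.39, 0.0447), Meox1 in 3 of 15, among them without cKit+/DDR2+/CD45+ (-1.23, 0.00544), and Comp without cKit-/DDR2+ (-2.82, 0.00869). The median of the 7 members was 2.52, against -0.12 over all genes tested. The Thbs1 call was lost with 3 of 15 other settings: without cKit+/DDR2+/CD45+ (2.68, adjusted p = 0.0745), without cKit+/DDR2+/CD45- (3.0, 0.0817) and with a gate on 2 UMIs (2.58, 0.0887). With the gates widened to cells that held several gate genes, Ctgf was 0.42 (adjusted p = 0.469) and Postn 2.01 (0.117), so that neither passed. With cells holding Csf1r, Prox1 or Mmrn1 left out of the gates, the Thbs1 difference was 5.62 and that of Meox1 passed, at -1.67 (adjusted p = 0.0158).

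In fibroblast-gated against endocardial-gated cells, 3 of the 7 members were higher and 1 was lower, where 22.2% of all genes tested were higher and 25.0% lower. Meox1 was higher by 4.88 ± 0.48 (adjusted p = 1.8e-05), Thbs1 by 4.18 ± 0.92 (0.00374) and Postn by 1.99 ± 0.58 (0.0166), each in 4 of 4 libraries. Comp was -4.93 ± 0.82 (adjusted p = 0.0007), lower in 4 of 4, a value that depends on the added 1 CPM because 2 fibroblast gates had 0 UMIs. Ctgf at -0.79 ± 0.41 (0.144), Cyr61 at 0.20 ± 0.25 (0.53) and Cilp at 2.57 (0.0618) did not pass. Cilp passed in 5 of 12 other settings, among them without cKit+/DDR2+/CD45+ (3.43, 0.0362) and without cKit+/DDR2+/CD45- (3.51, 0.0428), and Ctgf without cKit-/DDR2+ (-1.23, 0.0481). The Postn call was lost in 4 of 15 other settings, among them without cKit+/DDR2+/CD45- (1.60, adjusted p = 0.107), without cKit+/DDR2- replicate 2 (1.53, 0.0899) and with cells holding Csf1r, Prox1 or Mmrn1 left out (1.62, 0.0968). The Comp call was lost with gates of at least 50 cells (-3.54, adjusted p = 0.0772).

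In endocardial-gated against capillary-gated cells, 4 members were higher and 1 was lower, where 15.1% of all genes tested were higher and 18.4% lower. Ctgf was higher by 3.31 ± 0.38 (adjusted p = 0.000118), Comp by 3.25 ± 0.75 (0.00769) and Cyr61 by 1.22 ± 0.23 (0.00239), each in 5 of 5 libraries, and Meox1 was lower in 5 of 5, at -5.90 ± 0.44 (5.4e-06). Postn passed at 1.57 ± 0.53 (adjusted p = 0.0435, higher in 4 of 5) but in only 4 of 15 other settings, and not without cKit+/DDR2+/CD45+ (0.133), cKit+/DDR2+/CD45- (0.0663), cKit+/DDR2- replicate 1 (0.0601) or cKit-/DDR2+ (0.152). With the gates widened to cells that held several gate genes, Ctgf was 1.21 (adjusted p = 0.0531), Comp 1.97 (0.108) and Cyr61 0.74 (0.12), while Meox1 kept its call in all 15. Thbs1 was -1.15 ± 0.84 (adjusted p = 0.332), but 2.04 (0.0147) once cells with Csf1r, Prox1 or Mmrn1 were left out and -2.33 (0.00815) without cKit-/DDR2+.

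**Figure D4:**
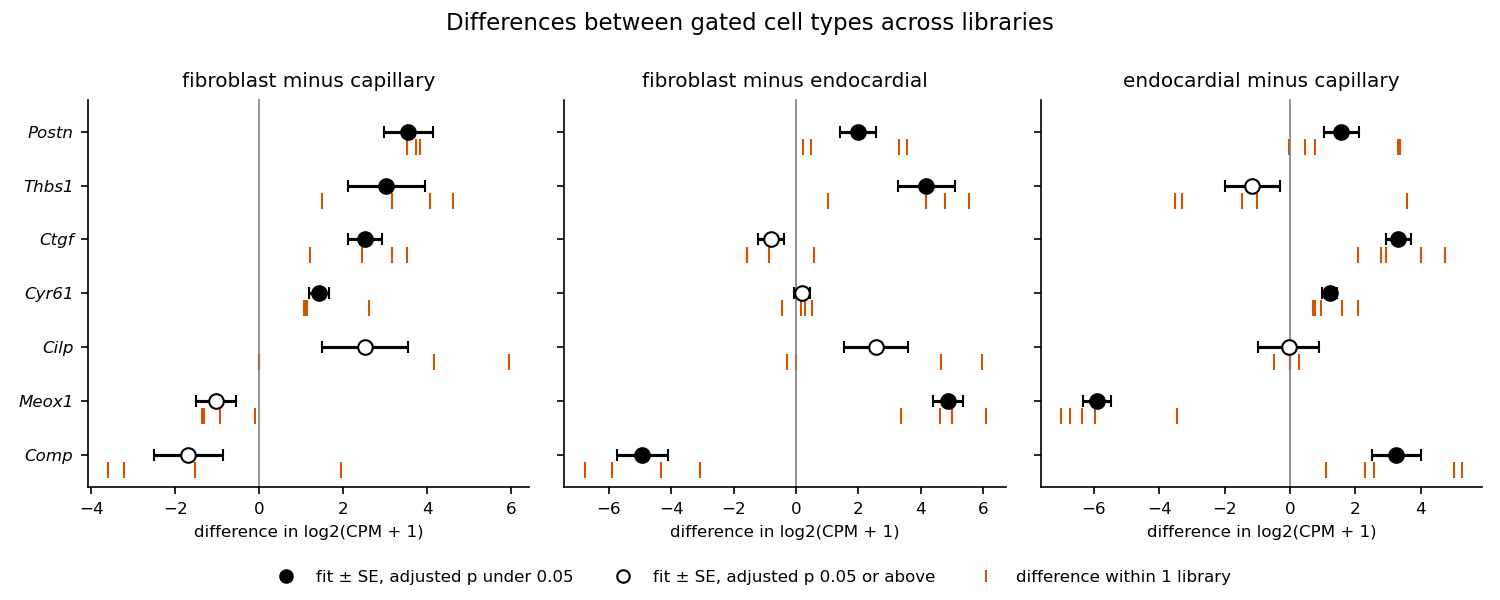
Differences between gates on the log2(CPM + 1) scale for the 7 members tested, as fitted over all libraries (points, ± SE) and in single libraries (ticks). Comp lies at -4.93 for fibroblast minus endocardial and 3.25 for endocardial minus capillary, and Meox1 at 4.88 and -5.90.

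The 29 pericyte-gated cells of cKit-/DDR2+ are 1 library. Pericytes have no replicate here, and the adjusted p-values below assume that they would vary between libraries as the other gates do. In fibroblast-gated against pericyte-gated cells, 2 members were higher, where 14.7% of all genes tested were higher and 18.2% lower: Cyr61 by 2.88 ± 0.44 (adjusted p = 0.00125) and Meox1 by 2.71 ± 0.85 (0.0329), the second not without cKit+/DDR2+/CD45- (0.0687) or replicate 2 of cKit+/DDR2- (0.0678). With gates set by summed markers neither passed (0.0771 and 0.501). Postn was -2.33 ± 1.03 and did not pass (adjusted p = 0.105). In pericyte-gated against capillary-gated cells, 2 members were higher and 2 lower, where 19.4% of all genes tested were higher and 18.0% lower. Postn was higher by 5.89 ± 1.02 (adjusted p = 0.00177) and Ctgf by 4.11 ± 0.73 (0.00203), while Meox1 was -3.74 ± 0.84 (0.00677) and Cyr61 -1.45 ± 0.44 (0.0257, and 0.0578 without replicate 2 of cKit+/DDR2-). With the gates widened to cells that held several gate genes none of the 4 passed, with Postn at 0.75 (adjusted p = 0.661), Ctgf at -0.45 (0.532), Meox1 at -0.13 (0.879) and Cyr61 at -0.18 (0.766). With gates set by summed markers, Meox1 was -2.37 (0.163) and Cyr61 -0.078 (0.934). With a filter of 10 CPM, Ltbp2 entered the fit too. It was higher in fibroblast gates by 3.32 ± 0.39 than in endocardial ones and by 2.97 ± 0.39 than in capillary ones. It passed this filter only through fibroblast gates, which reached 14.0 CPM, against at most 2.96 CPM in the endocardial and capillary gates. The filter thus largely set the direction of these differences, and they are a description.

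Between sorts, most members compared in the fibroblast gate were not counted as apart. A gene was counted as apart at 2-fold among genes with at least 50 CPM on 1 side. In fibroblast-gated cells of cKit+/DDR2- (replicate 2) minus cKit-/DDR2+, 2 of the 6 members that could be compared were apart, both higher, where 2.76% of all genes were apart in either direction. These were Postn, by 2.29 on the log2 scale (counting interval 2.11 to 2.52), and Cilp, by 1.32 (0.97 to 1.73). The differences of Thbs1 at 0.04 (-0.16 to 0.23), Cyr61 at -0.04 (-0.14 to 0.06) and Meox1 at 0.01 (-0.33 to 0.33) had counting intervals inside 2-fold. These intervals do not cover differences between cells. In replicate 2, 3 cells held 51 Meox1 UMIs, against 38 in the other 118, and 4 held 131 Thbs1 UMIs, against 123 in the other 117. Without the 5 cells per library with most of each gene, Thbs1 was -0.90, Cyr61 -0.22 and Meox1 -1.45. That step takes a larger share of the smaller gate (121 against 666 cells). Replicate 2 and cKit-/DDR2+ also differ in sex genes, as given above. In replicate 2, 5 cells held 67.3% of the Postn and 96.3% of the Cilp of this gate, as given above.

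Postn was the 1 of 5 members apart in fibroblast-gated cells of cKit+/DDR2+/CD45- minus cKit-/DDR2+, higher by 2.28 (1.98 to 2.61), where 3.24% of all genes were apart. In cKit+/DDR2+/CD45- 8 cells held Postn, and 5 of them held 97.2% of it. Cilp was the 1 of 6 apart in cKit+/DDR2+/CD45- minus cKit+/DDR2-, where 2.74% of all genes were. It had 0 UMIs in the 34 cells of cKit+/DDR2+/CD45- and was at least 9.10-fold lower, against a floor of 3 counts in that gate. This bound covers counting error only and not the spread over cells. In replicate 2, 2 cells held 60 Cilp UMIs and the other 119 held 21. Without the 5 cells with most Cilp, replicate 2 had 2.38 CPM. Of 5 members compared between cKit+/DDR2+/CD45+ and cKit+/DDR2+/CD45-, Postn alone was apart, at -2.55 (-3.50 to -1.77), where 12.6% of all genes were. Without cells holding Csf1r, Prox1 or Mmrn1, it was 88.4 against 178 CPM, with intervals that overlapped.

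In the endocardial gate Ctgf was apart only in the 2 comparisons with cKit-/DDR2+. It was 1.77 higher in cKit+/DDR2+/CD45- and 1.79 higher in cKit+/DDR2- (1.43 and 2.08 with each replicate) than in cKit-/DDR2+. That gate held 42 cells and also carried fibroblast markers, as given above. Thbs1 was -3.16 and -3.52 in the same comparisons, where the cKit-/DDR2+ level rests on 4 cells with Thbs1, 1 of them with 29 of the 35 UMIs. These were 2 of 4 members in both, where 7.18% and 5.32% of all genes were apart. None of 3 members was apart in cKit+/DDR2+/CD45- minus cKit+/DDR2- (0.863% of all genes) or in cKit+/DDR2+/CD45+ minus cKit+/DDR2+/CD45- (17.1%). Without cells holding Csf1r, Prox1 or Mmrn1, 12 and 217 genes were apart in these comparisons, against 27 and 595 with them.

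In the capillary gate, Thbs1 was 3.49 higher (3.15 and 3.77 with each replicate) and Ctgf 2.28 higher in cKit+/DDR2- than in cKit-/DDR2+, 2 of 4 members, where 5.46% of all genes were apart. With cells holding Csf1r, Prox1 or Mmrn1 left out, Thbs1 was -1.84. In cKit+/DDR2+/CD45- minus cKit+/DDR2-, Thbs1 was -2.05 and Ctgf -1.56, again 2 of 4, where 3.48% of all genes were apart, and 0 of 2 members were apart in cKit+/DDR2+/CD45- minus cKit-/DDR2+ (3.44%). Cyr61 was -1.26 and Meox1 -1.55 in cKit+/DDR2+/CD45+ minus cKit+/DDR2+/CD45-, 2 of 2, where 33.0% of all genes were apart. Without cells holding Csf1r, Prox1 or Mmrn1 the Meox1 difference there was 0.07. Those cells also counted in the shares over all genes of this gate. Without them, 36 genes were apart in cKit+/DDR2- minus cKit-/DDR2+, against 194, and 17 in cKit+/DDR2+/CD45- minus cKit+/DDR2-, against 119. In cKit+/DDR2+/CD45- minus cKit-/DDR2+ the count was 98 against 117, and in cKit+/DDR2+/CD45+ minus cKit+/DDR2+/CD45- 286 against 1228. Differences of Ctgf and Cyr61 between sorts without these cells are not given here.

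Over whole libraries, the number of cells of a type and their RNA per cell cannot be told apart. Thbs1 was 4.44, 33.2, 59.8, 28.4 and 125 CPM in the 5 libraries, highest in cKit-/DDR2+, where 46.1% of all UMIs came from fibroblast-gated cells. Comp was 3.17, 39.0, 78.6, 28.0 and 3.66 CPM, higher in the 3 libraries where endocardial-gated cells held 33.6 to 38.8% of UMIs than in the other 2, but not in the order of those shares. Comp was 3.54 higher and Thbs1 -1.48 in cKit+/DDR2- minus cKit-/DDR2+ (2 of 5 members, where 14.3% of all genes were apart), and Thbs1 was -1.88 in cKit+/DDR2+/CD45- minus cKit-/DDR2+ (1 of 4, 17.2%). Between cKit+/DDR2+/CD45+ and cKit+/DDR2+/CD45-, Ctgf was -4.40, Cyr61 -3.68 and Meox1 -3.87 (3 of 3, where 41.3% of all genes were apart). No member of 4 was apart in cKit+/DDR2+/CD45- minus cKit+/DDR2- (3.68%). In comparisons with cKit+/DDR2- a gene had to be apart from both replicates, and these counts over all genes were larger with 1 of them. Against cKit+/DDR2+/CD45- they were 123 over all cells (347 without replicate 1), 27 in the endocardial gate (54 without replicate 1, 102 without replicate 2) and 119 in the capillary gate (274 and 210). Against cKit-/DDR2+ they were 516 over all cells (792 without replicate 1), 186 in the endocardial gate (321 and 285) and 194 in the capillary gate (422 without replicate 1). The cKit+/DDR2- replicates themselves were 2-fold apart in Comp, Thbs1 and Meox1, 3 of 5 members, where 8.94% of all genes were.

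In 2 libraries, fibroblast-gated cells with a Meox1 UMI held more of several other members. In cKit-/DDR2+, the 236 fibroblast-gated cells with a Meox1 UMI had 94.5 CPM of Postn, against 21.0 CPM in the 430 without. They had 283 against 97.1 CPM of Ctgf, 52.1 against 6.88 CPM of Cilp, 29.4 against 4.70 CPM of Ltbp2 and 251 against 148 CPM of Thbs1. Their depth was close, with a median of 15013 against 13911 UMIs. In cKit+/DDR2- replicate 2, 21 cells with Meox1 and 100 without differed the same way, with 471 against 183 CPM of Postn, 493 against 81.9 CPM of Ctgf, 497 against 112 CPM of Thbs1 and 263 against 8.57 CPM of Cilp. Of these 21, 3 cells held most of the Meox1, and their smooth muscle markers summed to 1502 CPM, against 25.1 CPM in the rest of the gate. The part of smooth muscle transcripts in this pattern was not tested. Cells of 1 library are not replicates, and these values describe the 2 libraries. At 1000 UMIs per cell, few cells held a pair of members. Postn and Meox1 were found together in 3 of 663 cells of cKit-/DDR2+ (0.452%, where the product of their shares was 0.173%) and in 2 of 120 of replicate 2 (1.67%, product 0.611%). In cKit-/DDR2+ the pairs with Cyr61 lay close to their products, with Ctgf and Cyr61 in 4.98% of cells (product 4.70%) and Thbs1 and Cyr61 in 5.58% (product 5.61%). In the fibroblast gates of cKit+/DDR2+/CD45+ and cKit+/DDR2+/CD45-, none of these 3 pairs was found in more than 1 cell.

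**Figure D5:**
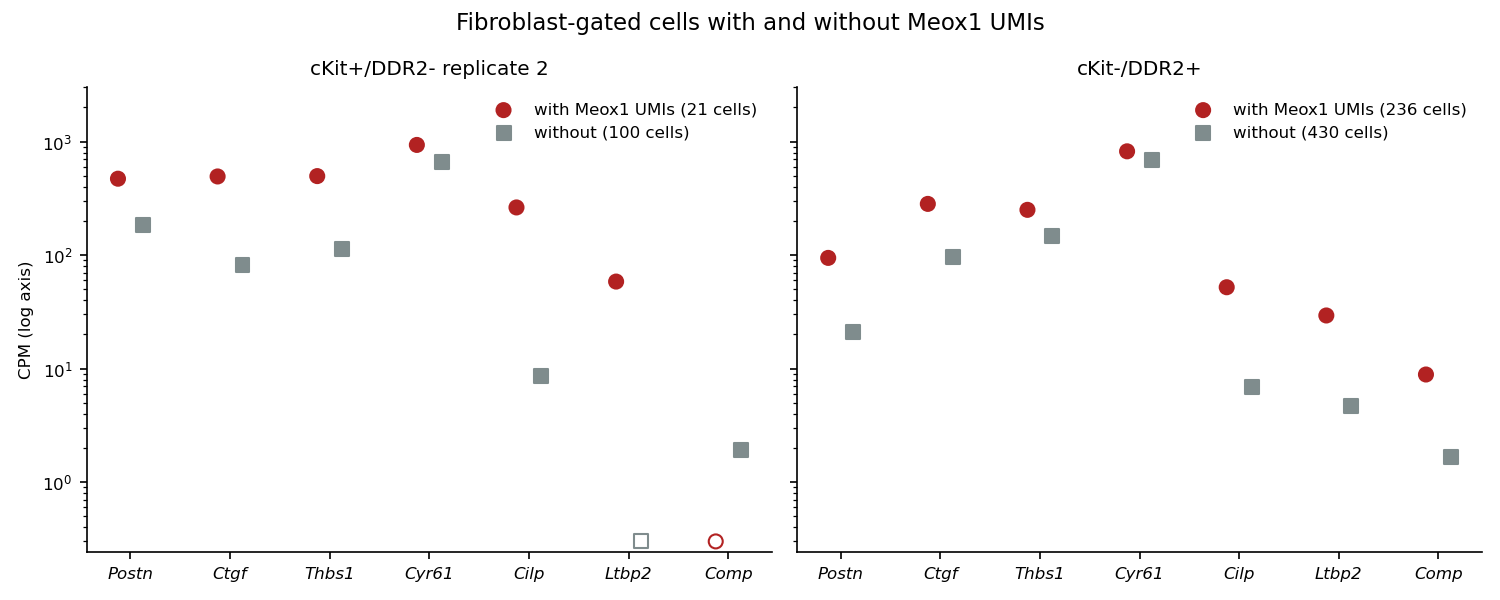
Levels (CPM, log axis) of other members in fibroblast-gated cells with and without Meox1 UMIs, in cKit+/DDR2- replicate 2 and cKit-/DDR2+, with open points for 0 UMIs. Postn is 471 against 183 CPM and 94.5 against 21.0 CPM.

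The same held for Cilp in cKit-/DDR2+. The 44 fibroblast-gated cells with a Cilp UMI had 130 CPM of Ltbp2, against 4.52 CPM in the 622 without, and 553 against 136 CPM of Ctgf. Comp, otherwise nearly absent from fibroblast-gated cells, was 45.8 against 1.02 CPM, but 28 of its 42 UMIs in this gate were in 1 cell. The 83 cells with a Postn UMI had 80.1 against 14.1 CPM of Cilp, 161 against 50.5 CPM of Meox1 and 44.9 against 8.59 CPM of Ltbp2, compared with the 583 without.

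Endocardial cells with Ctgf were also richer in Cyr61. In the 5 libraries, 32, 198, 58, 557 and 10 endocardial-gated cells held a Ctgf UMI, and 99, 203, 62, 633 and 32 did not. Cyr61 was 728, 852, 1245, 911 and 1326 CPM in the cells with Ctgf, against 224, 508, 431, 392 and 335 CPM in those without. In cKit+/DDR2+/CD45+ these groups differed in depth, with a median of 11725 against 774 UMIs, so the joint detection was also counted at 1000 UMIs per cell. Both genes were found in 5.80%, 8.56%, 9.17%, 8.11% and 4.88% of cells, where the product of the separate shares was 2.02%, 6.19%, 5.67%, 5.41% and 2.86%.

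Genes around the members in the same pathways were read by lists, of which up to 4 genes past the threshold are named in the order of the list. Like the members, list genes were tested only if they reached 50 CPM in at least 1 gate and library. A gene can pass this filter through the gate where it is high, so counts and medians over a list are a description. In fibroblast-gated against endocardial-gated cells, the other matricellular genes were higher in 8 of 8 tested (12 in the list), with a median of 3.88 against -0.05 over all genes: Sparc by 3.26, Sparcl1 by 6.39, Thbs2 by 5.93 and Thbs3 by 3.26 (adjusted p at most 2.2e-05). Of all genes tested, 22.2% were higher and 25.0% lower in this comparison. Comp, a thrombospondin like Thbs2 and Thbs3, was lower, as given above. Of the contractile and fibrillar genes, 6 of 8 tested were higher and 0 lower, with a median of 3.67, among them Acta2 by 3.38 (0.0021), Tagln by 2.15 (0.0265), Col1a1 by 6.19 (6.9e-05) and Col1a2 by 3.96 (0.00024). Of 10 immediate early genes, which cells switch on within minutes of a stimulus, 6 were higher and 0 lower, with a median of 0.85: Fos by 1.22 (0.00809), Junb by 1.06 (0.000583), Egr1 by 1.10 (0.000445) and Ier2 by 1.33 (4.5e-05).

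YAP and TEAD factors and targets, a group whose best known targets are Ctgf and Cyr61, were lower in 5 of 8 tested in fibroblast-gated against endocardial-gated cells and higher in 1, with a median of -0.78 against -0.05 over all genes. Of all genes tested, 25.0% were lower and 22.2% higher there. Yap1 was -0.99 (adjusted p = 0.046), Wwtr1, which encodes TAZ, -1.02 (0.00104) and Amotl2 -2.34 (6.8e-05), while Axl was higher by 3.55 (0.00157). In endocardial-gated against capillary-gated cells, where 15.1% of all genes were higher and 18.4% lower, 3 of 8 were higher and 0 lower, with a median of 0.72 against -0.06: Yap1 by 1.15 (0.0224), Amotl2 by 1.13 (0.00637) and Crim1 by 1.2 (0.00193). TGF-beta signalling genes were higher in 7 of 13 tested and lower in 0, with a median of 0.67, among them the receptors Tgfbr1 by 0.67 (0.0479) and Tgfbr3 by 1.12 (0.00155), the feedback inhibitor Smad7 by 1.23 (0.0145) and the latency protein Ltbp1 by 1.82 (0.00195). In fibroblast-gated against capillary-gated cells, where 21.3% of all genes were higher and 28.0% lower, TGF-beta genes were higher in 6 of 13 and lower in 2, with a median of 0.58 against -0.12 (Tgfb1 -1.59, adjusted p = 0.000242; Tgfb2 2.35, 0.0035; Tgfbr3 1.65, 9.6e-05). Matricellular genes were higher in 6 of 8, contractile and fibrillar genes in 6 of 8 and immediate early genes in 7 of 10, with 0 lower in each. YAP and TEAD genes were higher in 2 of 8 and lower in 4, with Wwtr1 at -1.26 (0.000212) and Amotl2 at -1.21 (0.00425), Tead1 higher by 0.43 (0.0226) and Axl by 4.73 (0.000197).

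TGF-beta genes were mixed in fibroblast-gated against endocardial-gated cells, with 2 of 13 higher and 3 lower and a median of 0.04. Of all genes tested, 22.2% were higher and 25.0% lower there. In endocardial-gated against capillary-gated cells, 15.1% of all genes tested were higher and 18.4% lower. Contractile and fibrillar genes were higher there in 4 of 8 and lower in 0, with a median of 2.05: the fibronectin gene Fn1 by 2.43 (adjusted p = 0.000587), Col1a1 by 2.54 (0.0151), Col1a2 by 4.51 (0.000115) and Col3a1 by 3.34 (0.0053). Matricellular genes were higher in 1 of 8 and lower in 2, with Sparc at -2.81 (4.1e-06), Sparcl1 at -6.91 (2.1e-08) and Thbs3 higher by 1.02 (0.024), and immediate early genes were higher in 3 of 10 and lower in 1. In pericyte-gated against capillary-gated cells, contractile and fibrillar genes were higher in 7 of 8, with a median of 4.32 against 0.06 over all genes, among them Acta2 by 4.77 (0.0109), Myl9 by 6.73 (0.0108), Fn1 by 2.07 (0.0366) and Col1a1 by 4.06 (0.0319). There, where 19.4% of all genes were higher and 18.0% lower, TGF-beta genes were higher in 1 of 13 and lower in 4, YAP and TEAD genes higher in 2 of 8 and lower in 0, matricellular genes lower in 1 of 8 and immediate early genes lower in 2 of 10. In fibroblast-gated against pericyte-gated cells, where 14.7% of all genes were higher and 18.2% lower, TGF-beta genes were higher in 5 of 13, matricellular genes in 6 of 8, contractile and fibrillar genes in 3 of 8 and immediate early genes in 6 of 10, with 0 lower in each, while YAP and TEAD genes were higher in 0 of 8 and lower in 2. Col1a1 and Col3a1 also stand among the fibroblast markers, and Acta2 and Tagln among the smooth muscle markers.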

How the data were processed

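Cell Ranger (version not given in the sources used here), the build mm10 and Seurat 4.0.4 are named in the submitters' processing notes. The tables deposited by the authors hold a natural log per gene and cell: that of UMIs per 10000 plus 1. UMIs were recovered from these values, and 100% came out whole within 0.01. A gene not listed in a table was taken as 0 there. Between 12 and 77 genes per library were listed with UMIs in 1 cell and 444 to 549 in 3 cells, so that absence from a table can hide UMIs of 1 or 2 cells.

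UMIs were summed per gate and library and scaled to CPM (3-prime UMIs, not divided by gene length). Cells with several gate genes were left out (31, 233, 84, 350 and 431 cells from cKit+/DDR2+/CD45+ to cKit-/DDR2+ in the order of the report), and no doublet caller was run. Sorts were compared as log2(CPM + 1) differences, and with both cKit+/DDR2- libraries each had to lie 2-fold apart on the same side. Intervals of differences between sorts were computed for the plain ratio, with no CPM added, and cover counting error only, and the range over the 2 replicates is not an interval. Cell types were compared with limma (trend, library as a block, 2-sided, Benjamini-Hochberg) over 15 gates with at least 20 cells. Genes needed 50 CPM in 1 gate. The fit was tested on simulated data.

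The members, gates and lists were chosen with earlier results of these data known. All 10 members are named, with up to 4 genes per list and the 3 genes most like each member, except where a gene is not reported here. Other genes named beside cell splits (Bmp6, Inhba, Nrg1 and Apoc1) were chosen after their values were seen. Gene coordinates are those of GENCODE vM21 (GRCm38) and promoters those of RefSeq. Python 3.11.15, numpy 2.4.6, scipy 1.17.1, pandas 2.3.3, matplotlib 3.10.9, R 4.3.3 and limma 3.58.1 were used.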

Additional observations from a re-analysis of the deposited data

Results flagged for a closer look

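Thbs1 moved in opposite directions in the 2 endothelial gates under the same comparison. In cKit+/DDR2- minus cKit-/DDR2+, it was 3.49 on the log2(CPM + 1) scale in capillary-gated cells (104 and 67.6 CPM in the cKit+/DDR2- replicates, 6.70 CPM in cKit-/DDR2+), with both replicates higher. In endocardial-gated cells it was -3.52 (8.10 and 6.02 CPM, against 91.2 CPM), with both replicates lower. The difference between these differences was not tested, since cKit-/DDR2+ has 1 library. The capillary value moved with the cells that held Prox1 or Mmrn1 and 29 of the 35 UMIs behind the endocardial value of cKit-/DDR2+ were in 1 cell.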

How the results depend on the processing

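Of the differences between cell types and their counts, 471 values under another setting kept their direction and side of the threshold, 19 passed it, 34 no longer did, 18 reversed and 11 counts moved by over 1.5 times. Of the differences between sorts and their counts 612 held, 164 moved and 7 reversed, of the levels 964 held and 216 moved, and of the shares of cells 175 held and 125 moved. The settings that left out shared barcodes, cells with Csf1r, Prox1 or Mmrn1, or the 5 cells with most UMIs, and the gate on summed markers, were chosen after seeing the data. The cause of each change was not tested, unless it follows from fewer genes, cells or libraries. No paired analysis was possible because the sorts share fewer than 2 replicate numbers.

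Genes past the threshold in endocardial minus capillary numbered 1902, but 733 with the inclusive gate, and 1224 to 2094 leaving out 1 library at a time (1224 without cKit+/DDR2+/CD45-). In fibroblast minus capillary they numbered 2803, but 4320 with a filter of 10 CPM and 4554 with 1 UMI, in fibroblast minus endocardial 2681, but 1696 with gates of 50 cells, and in fibroblast minus pericyte 1867, but 3287 and 3153 with those filters. In pericyte minus capillary they numbered 2129, but 322 with the inclusive gate, 3756 and 3755 with those filters and 1259 with the marker-sum gate.

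Members 2-fold apart over all cells in cKit+/DDR2+/CD45- minus cKit-/DDR2+ numbered 1, but 3 with a filter of 10 CPM, 5 with none and 2 without Gm42418, Lars2 and mitochondrial genes in the total. In cKit+/DDR2+/CD45+ minus cKit+/DDR2+/CD45- they numbered 3, but 6 with 10 CPM and 9 with no filter, and in cKit+/DDR2- minus cKit-/DDR2+ 2, but 5 with no filter. In cKit+/DDR2+/CD45- minus cKit+/DDR2- they numbered 0, and 0 to 1 leaving out 1 replicate.

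Leaving out the 5 cells with most UMIs takes a larger share of a small gate and, for endocardial Thbs1 in cKit-/DDR2+, every cell with a UMI, so that changes under it can follow from gate size alone. Under it, the fibroblast differences of Postn (cKit+/DDR2+/CD45- minus cKit-/DDR2+, -1.99) and Cilp (cKit+/DDR2- minus cKit-/DDR2+, -2.06) and the endocardial ones of Thbs1 (2.05 and 1.48) reversed. Without cells holding Csf1r, Prox1 or Mmrn1, capillary Thbs1 (cKit+/DDR2- minus cKit-/DDR2+) was -1.84, capillary Meox1 (cKit+/DDR2+/CD45+ minus cKit+/DDR2+/CD45-) 0.074, Thbs1 2.04 in endocardial minus capillary, Comp 0.61 in fibroblast minus capillary and Cyr61 -0.15 in fibroblast minus endocardial. With a gate on 2 UMIs, capillary Cyr61 was 0.23 in cKit+/DDR2+/CD45+ minus cKit+/DDR2+/CD45-, Cilp 0.0034 in endocardial minus capillary and Cyr61 -0.019 in fibroblast minus endocardial. Cyr61 in that contrast was -0.12 with gates of 50 cells and -0.17 with the marker-sum gate, which also gave Comp 1.17 in fibroblast minus capillary and Thbs1 -3.68 in pericyte minus capillary. With the inclusive gate, fibroblast minus pericyte was 1.26 for Postn, -0.49 for Comp, 0.86 for Ctgf and -0.42 for Meox1, and Ctgf -0.45 in pericyte minus capillary. Thbs1 in pericyte minus capillary was -0.036 with 5 CPM added, -0.12 with median-of-ratios scaling and -0.042 (without cKit+/DDR2+/CD45+) to 0.37 leaving out 1 library, and Cilp in endocardial minus capillary 0.072 without cKit-/DDR2+.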

Other observations

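Endocardial-gated cells that held Ctgf or Comp had distinct companions. Bmp6, which encodes a secreted bone morphogenetic protein, was 527, 327, 440, 240 and 310 CPM in the cells with Ctgf, against 98.9, 120, 179, 89.6 and 67.8 CPM in those without, from cKit+/DDR2+/CD45+ to cKit-/DDR2+ in the order of the report. Inhba, which encodes the activin A subunit, was 3.01, 26.6, 7.55, 12.7 and 9.68 CPM against 15.6, 87.7, 76.1, 40.9 and 432 CPM, lower with Ctgf in all 5. Cells with Comp, 21, 94, 41 and 200 in the 4 cKit+ libraries, had 176, 89.2, 370 and 185 CPM of Apoc1, an apolipoprotein gene, against 29.4, 32.8, 16.1 and 50.05 CPM in the cells without. They had 109, 389, 329 and 449 CPM of Nrg1, a growth factor of endocardium, against 50.4, 226, 115 and 185 CPM, and 0, 3.57, 6.13 and 1.91 CPM of Inhba against 14.0, 74.1, 63.3 and 33.0 CPM. Ctgf itself was 233, 426, 505 and 367 CPM against 222, 369, 461 and 291 CPM. In cKit+/DDR2+/CD45+ the cells with and without differed in depth, with a median of 11725 against 774 UMIs for Ctgf and 10077 against 883 for Comp. These companions were picked after their values were seen, and no test was run.

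Over the 15 sums of a gate in a library, which share libraries and depth, the levels of a few genes went most closely with each member (Pearson r of log2(CPM + 1), a description). They were Asph (0.92), Dcbld2 (0.91) and Chn1 (0.91) for Postn, Aebp1 (0.94), Khdrbs3 (0.92) and Itih5 (0.92) for Thbs1, and Megf6 (0.95), Amigo2 (0.94) and Bmx (0.93) for Comp. They were Tceal9 (0.92) and Fam124a (0.92) for Ctgf, Lysmd2 (0.92), Sntb2 (0.91) and Ltbp1 (0.90) for Cyr61, and Plod1 (0.95), Fam102a (0.93) and Vav3 (0.92) for Meox1. For Ltbp2 they were Efs (0.98), Efhd1 (0.98) and Msc (0.97), and for Cilp Inmt (0.89), C7 (0.79) and Erp44 (0.79). Cthrc1 went with Bnip3l (0.90), Bmp6 (0.88) and Msrb3 (0.88), and Tnc with Hnrnpul1 (0.79), Vamp7 (0.78) and Nf1 (0.77).

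Of cells outside the 4 gates, lymphatic-gated cells held Prox1 and none of the 4 gate genes. They had 369 CPM of Thbs1 and 52.1 CPM of Comp in cKit+/DDR2+/CD45- (23 cells), and 129 and 39.6 CPM in replicate 2 of cKit+/DDR2- (65 cells). Levels are not given for cKit+/DDR2+/CD45+ (87 cells), replicate 1 (17) and cKit-/DDR2+ (8), so these 2 libraries do not stand for the rest. In replicate 1, all cells with none of the 4 gate genes held 1.65% of the 242 Thbs1 and 1.26% of the 318 Comp UMIs.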
